A study of Mus musculus with 10 samples.

Results

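Regions of open chromatin near the start sites of pseudogenes were examined in mouse sperm. Overlapping peak intervals (1 bp or more) of 10 ATAC-seq libraries were joined, and regions on chromosomes 1 to 19 with a peak in at least 2 libraries were kept, which gave 24550 consensus regions. A region was counted here when the nearest annotated transcript start lay within 3 kb and belonged to a pseudogene, and 591 of the 24550 regions met this rule. Of these, 495 lay at processed pseudogenes, 89 at unprocessed pseudogenes and 7 at other kinds (unitary, polymorphic or immune receptor segments).

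A pseudogene is a copy of a gene that no longer encodes a working product. Processed pseudogenes arise when a messenger RNA is copied back into DNA and inserted elsewhere in the genome, so they lack introns and usually the promoter of the parent gene. Unprocessed pseudogenes are decayed gene duplicates, which keep the exon and intron structure and often lie in clusters of near-identical copies. In sperm most histones are replaced by protamines, and the tightly packed genome retains few accessible sites.

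The libraries came from C57BL/6JRccHsd males that arrived at 3 weeks of age and, from 4 weeks of age, received standard chow with 14% protein (F0 CD, 6 mice) or a Western diet with 40% of energy from fat and 43% from carbohydrate (F0 WD, 4 mice) for 6 months. Mature sperm were taken from the cauda epididymidis, and ATAC-seq, in which a transposase cuts accessible DNA, was performed on each mouse. The protocol text in the labels gives 4 chow and 6 Western diet replicates, whereas the sample titles give 6 and 4, and the titles were followed. The peak lists held 13366 to 29532 intervals, and that of F0 CD replicate 2 was the longest. Regions called in a single library were set aside, 88543 in number.

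As a check of the cell label, peaks within 3 kb of the starts of marker genes were counted. A peak in any library was found for 3 of 7 sperm and spermatid genes, 3 of 7 epididymal epithelium genes, 4 of 5 immune genes and 3 of 4 spermatogonial genes, never in more than 2 libraries. Of the protamine genes Prm1 had a peak in 1 library and Prm2 had none, and Tnp1 and Tnp2, which encode the transition proteins that precede protamines, had none. The marker starts were thus nearly without peaks, and the lists did not tell the labelled cell type from the others.

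The reference sequence under several of the strongest pseudogene regions occurred elsewhere in the genome or in tandem copies, and 81 bases around the highest summit of 4 of them are shown (GRCm38/mm10, plus strand). In Gm10222 the capitals mark bases inside 50-base windows that also occur in the mitochondrial genome. In Gm3318, Gm13717 and Gm6216 they mark the first copy of the tandem unit.
Gm10222, chr1:24612706-24612786: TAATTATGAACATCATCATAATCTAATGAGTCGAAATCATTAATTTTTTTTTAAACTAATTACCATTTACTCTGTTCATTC
Gm3318, chr10:3116969-3117049: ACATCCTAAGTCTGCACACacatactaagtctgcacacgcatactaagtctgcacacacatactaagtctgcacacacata
Gm13717, chr6:29748474-29748554: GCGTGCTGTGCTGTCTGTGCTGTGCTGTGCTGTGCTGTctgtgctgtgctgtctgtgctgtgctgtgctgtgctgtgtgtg
Gm6216, chr1:12657586-12657666: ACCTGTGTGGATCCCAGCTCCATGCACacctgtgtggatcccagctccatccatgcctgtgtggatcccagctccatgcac

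Gm10222 carried the highest-ranked pseudogene region. It is an unprocessed pseudogene on chromosome 1 whose region, chr1:24612573-24612915, covers the annotated start. Of its 294 windows of 50 bases, 252 were identical to the mitochondrial genome, in a match of 184 bases that spans parts of mt-Tr and mt-Nd4l and one of 166 bases that spans parts of mt-Nd3 and mt-Tr. It was the only one of the 24550 regions with such a window. The authors removed reads that aligned to mitochondrial DNA, and the part of mitochondrial reads in this peak was not tested. Fold enrichment over local background was 19.7, 25.9, 21.9, 24.1, 13.2 and 26.4 in F0 CD replicates 1 to 6 and 16.5, 23.1, 8.15 and 14.6 in F0 WD replicates 1 to 4. The groups overlapped, F0 WD replicate 3 was the lowest, and the mean place in the list (rank of the summit by −log10 p as a percentage of its list, low being strong) was 0.276% in F0 CD and 0.608% in F0 WD (exact permutation p = 0.171, two-sided).

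Ftl1-ps2 is a processed copy of a ferritin light chain gene, which encodes an iron storage protein. Its region did not overlap the pseudogene but lay upstream, 1557 bp from the start, and 86.0% of its bases were repeat-masked. Fold enrichment at its region on chromosome 10 was 8.66 to 14.7 in F0 CD (median 9.93) and 7.43 to 15.3 in F0 WD (median 10.8), and the groups overlapped.

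Short tandem units lay under 3 of the processed pseudogene regions with a peak in every library, those of Gm3318, Gm13717 and Gm6216. Not all such regions did: at Gm13246 the best tandem identity over the region was 41.5%. Over their whole regions the values were 76.9% at Gm3318 (period 19 bases), 67.3% at Gm13717 (5 bases) and 93.8% at Gm6216 (54 bases). The printed windows had a period of 19 bases at Gm3318 (95.2% of bases equal to the base one period away), 38 bases at Gm13717 (93.0%) and 27 bases at Gm6216 (90.7%), a pseudogene most like Gapdh, the glycolytic enzyme. Median fold enrichment over the 10 libraries was 10.5, 9.39 and 8.49 respectively. Of their 50-base windows, 22.8%, 72.9% and 27.9% occurred once in the reference genome. None of these 3 regions overlapped the pseudogene itself, with distances from its start of 1783, 1566 and 1600 bp.

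Pisd-ps1 and Pisd-ps2 are transcribed unprocessed copies of Pisd, which encodes phosphatidylserine decarboxylase. Pisd-ps1 had 3 regions, found in 10, 7 and 8 libraries, and Pisd-ps2 had a pair of regions found in all 10. At chr11:3126916-3127377 the fold enrichment was 7.38 to 9.78 in F0 CD and 6.75 to 10.1 in F0 WD, so the groups overlapped. Windows that occurred once made up 24.9% of this region. The Pisd-ps2 region chr17:3081631-3082081 had 0.995% of such windows and a median fold enrichment of 8.93. Gm19459, the next unprocessed pseudogene by place in the lists, had a peak in 9 libraries with a median fold enrichment of 6.90, and 31.9% of its windows occurred once.

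Fau-ps2, a processed copy of Fau, differed in kind. Its 3 neighbouring regions had a peak in all 10 libraries with a median fold enrichment of only 2.25, 2.12 and 1.98, on a high local background. At chr11:3195577-3197086 the summit held 185 to 256 read ends in F0 CD against a background of 75.2 to 121.5, and 140 to 231 in F0 WD against 62.1 to 100.7. All windows of this region occurred once in the reference. Pisd-ps1, Fau-ps2 and Gm11400, a copy most like Eef2, together made a cluster of 8 regions at chr11:3126916-3199367, of which 5 had a peak in all 10 libraries.

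**Figure D1:**
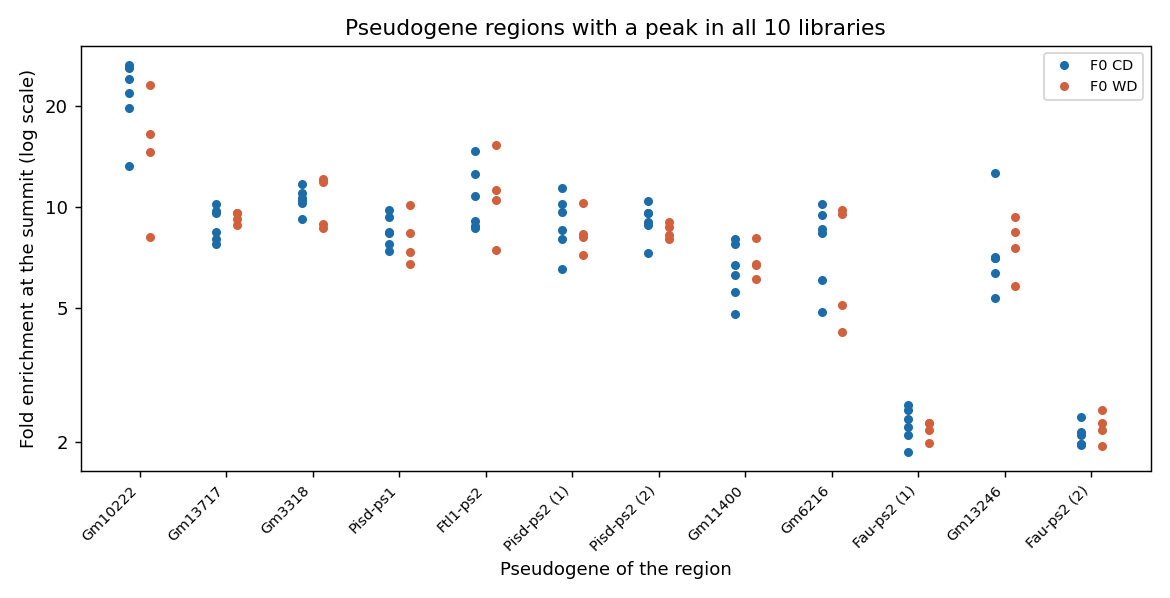
Fold enrichment at the summit (log scale) of the 12 best-ranked pseudogene regions with a peak in all 10 libraries, 1 point per library, F0 CD and F0 WD side by side. Gm10222 reached 26.4, the Fau-ps2 regions stayed near 2, and the diets overlapped in each region.

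In all, 21 pseudogene regions (3.55%) had a peak in every library, compared with 2.08% of all consensus regions and 2.91% of 2337 regions at protein-coding starts. At the other extreme, 278 (47.0%) had a peak in exactly 2 libraries, compared with 45.9% of all consensus regions and 51.1% of protein-coding start regions. Of the 21 regions, 11 had less than 90% of unique windows. The same held for 232 of the 510 consensus regions with a peak in every library, and for 44 of the 68 at protein-coding starts. By place in the peak lists, 8 pseudogene regions (1.35%) had a median within the best 1%, compared with 1.41% of protein-coding start regions and 0.497% of all consensus regions. Most of these 8 lay near the ends of chromosomes. Those of Gm3318, Gm11400, Pisd-ps1 and Pisd-ps2 lay 3.08 to 3.15 Mb from the chromosome start. The Ftl1-ps2 region lay 99.9 kb from the end of its chromosome. How many of the other best-ranked consensus regions lay near chromosome ends was not counted. The location thus cannot be called particular to pseudogene regions, and its part was not tested.

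Near-identical sequence was common among the unprocessed pseudogene regions. Less than 90% of windows occurred once in 51 of the 89 unprocessed regions (57.3%), 132 of the 495 processed (26.7%) and 20.7% of all consensus regions. The median share of unique windows was 85.2% in unprocessed and 99.0% in processed regions. The authors' aligner kept up to 20 positions per read, alignments of quality under 5 were then removed, and the effect of these steps on these regions was not tested. Exact 50-base windows were shared with another pseudogene region by 131 of the 591. Gm13246 and Gm13163 on chromosome 4, which were called in 10 and 7 libraries, shared 130 windows, and Gm10060 and Gm21769 on chromosome 8, called in 6 and 2 libraries, shared 129. Members of such pairs are not independent observations.

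Clusters of at least 5 regions with gaps of at most 250 kb were found at 5 places and held 39 of the regions. The largest, chr8:19713319-20594136, had 11 regions at 9 pseudogenes, and all 11 had less than 90% of unique windows. The same was true of all 6 regions at chr1:84963995-85500282.

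Pseudogene regions were spread over the 3 kb on both sides of the start. The distance to the start had a median of 1407 bp for processed and 1512 bp for unprocessed regions, and 24 and 8 of them covered the start. Within 500 bp lay 104 processed regions, and the last 500 bp before the limit held 82 (16.6%). Only 85 processed regions (17.2%) overlapped the pseudogene, while 245 lay upstream and 165 downstream of it. Of the unprocessed regions 42 (47.2%) overlapped the gene. Processed pseudogenes are short, with a median length of 556 bp over all 9193 on these chromosomes, against 1708 bp for unprocessed ones.

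**Figure D2:**
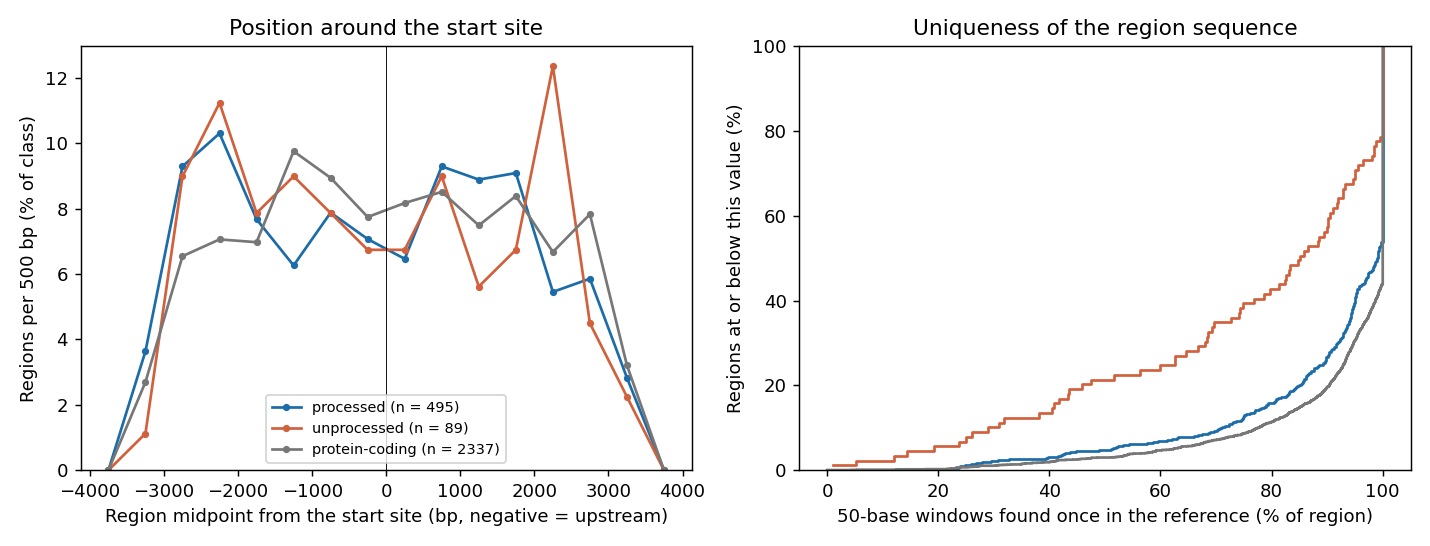
Left, position of region midpoints from the start site (bp, negative upstream) as the percentage of each class per 500 bp. Right, cumulative percentage of regions by the share of 50-base windows found once in the reference. Positions were spread over the 3 kb on both sides, and the unprocessed curve rose earliest, with a median of 85.2%.

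The processed regions that overlapped the pseudogene differed in sequence from those beside it. CA or TG units repeated 10 or more times were present in 8 of 85 (9.41%) overlapping regions, in 105 of 245 upstream (42.9%) and in 70 of 165 downstream (42.4%). Over all consensus regions the share was 47.6%. The repeat-masked share had a median of 5.67% in overlapping regions and 70.0% and 70.6% upstream and downstream. Median fold enrichment was 3.59, 4.17 and 4.05. These values describe the reference sequence and the peaks and were not tested.

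The pseudogenes behind the regions were set against all annotated ones. Of 11594 pseudogenes on these chromosomes, 548 (4.73%) had a region, namely 468 of 9193 processed (5.09%) and 74 of 2011 unprocessed (3.68%). Grouped by symbol or by the most similar protein-coding transcript, ribosomal protein copies were the most numerous, with 113 of 2186 (5.17%). Copies of glycolytic enzyme genes had a region in 23 of 301 (7.64%), translation factors in 14 of 156 (8.97%), and chaperones and folding factors in 11 of 182 (6.04%). Of the 23 glycolytic copies, 8 were most like Ldha (8 of 29) and 11 most like Gapdh (11 of 217). At the low end were cytoskeleton genes with 1 of 105 (0.952%), olfactory receptors with 4 of 357 (1.12%), immune segments and MHC genes with 3 of 237 (1.27%) and vomeronasal receptors with 5 of 351 (1.42%). Between them lay histones (2.30%), zinc finger genes (3.57%), proteasome and ubiquitin genes (6 of 143), HMG and RNA-binding protein genes (4.55%) and the respiratory chain (4.65%).

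Gapdh, with the largest number, was the most similar gene of 11 pseudogenes with a region out of 217 (5.07%), Rps2 of 10 out of 135 (7.41%) and Hmgb1 of 9 out of 146 (6.16%). For Ldha, which encodes a lactate dehydrogenase subunit, the count was 8 of 29 (27.6%). Of the 8 Ldha regions 7 had a peak in exactly 2 libraries, and F0 CD replicate 5 held 6 of them. No list was tested. Most pseudogenes (511) had 1 region, 32 had 2, 4 had 3, and Gm5373 on chromosome 8 had 4, found in 2, 8, 5 and 5 libraries.

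Regions just inside and just outside the 3 kb limit were read for their values. Gm35160, Gm10247 and Gm43381 lay 2981, 2991 and 2997 bp from the start and had a median fold enrichment of 5.17, 3.79 and 3.29. Just outside, Gm42821, Gm13147 and Gm17906 lay at 3001, 3001 and 3014 bp, with 3.66, 3.31 and 3.51.

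The share of the 591 regions with a peak in a library was 30.6%, 55.7%, 37.9%, 36.0%, 31.6% and 38.4% in F0 CD replicates 1 to 6 and 38.6%, 36.9%, 34.3% and 26.1% in F0 WD replicates 1 to 4. For F0 CD the mean was 38.4% ± 9.06 (SD, n = 6), for F0 WD it was 34.0% ± 5.55 (SD, n = 4), a difference of -4.41 points (exact permutation p = 0.486, adjusted over 7 tests 0.567, two-sided). F0 CD replicate 2 stood apart with the longest list, and without it the difference was -1.13 points. As a share of the consensus regions in a library, pseudogene regions made up 2.47% ± 0.222 (SD, n = 6) and 2.44% ± 0.140 (SD, n = 4), with exact permutation p = 0.819 and adjusted p = 0.819. The spread between mice exceeded both differences.

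Processed and unprocessed regions were compared within each library. The same regions were read in all 10 libraries. The sign-flip p, here and below, thus measures agreement between libraries and not the spread between regions. Processed regions had a peak in 36.4% ± 8.09 (SD, n = 10) and unprocessed in 38.5% ± 7.36 (SD, n = 10), with a mean difference of -2.18 points that was negative in 7 of 10 libraries (exact sign-flip permutation p = 0.215, adjusted 0.320, two-sided). Among F0 CD libraries this difference was -0.534 ± 5.09 points (SD, n = 6), among F0 WD libraries -4.64 ± 4.36 (SD, n = 4), a contrast of -4.10 points between the diets (exact permutation p = 0.229, adjusted 0.320). Without transcribed pseudogenes this contrast was -4.53 points (exact p = 0.0429), and it turned to 5.21 points within 1 kb of the start (exact p = 0.200) and to 1.61 points at a peak q under 0.001 (exact p = 0.838). The difference in share between the classes, over all libraries, was -8.50 points with start sites within 1 kb only (exact p = 0.00391). It reversed to 2.47 points, higher at processed regions, with transcribed pseudogenes left out (exact p = 0.0547), to 1.64 points with at least 3 libraries required (exact p = 0.598) and to 3.27 points among regions with at least 90% of unique windows (exact p = 0.102).

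Median fold enrichment was lower at processed than at unprocessed regions in 8 of 10 libraries, by a mean of -0.175 (exact sign-flip permutation p = 0.0156, adjusted 0.0365). F0 WD replicate 4 contributed -0.728, and the other 9 libraries lay between -0.369 and 0.0653. It was 0.0813 with the transcribed types left out (exact p = 0.223), -0.00517 with 1 region per gene (exact p = 0.969) and 0.122 among regions with at least 90% of unique windows (exact p = 0.201). With distance taken from the region midpoint it was -0.147 (exact p = 0.168). Leaving out F0 CD replicate 1 or 4 gave exact p = 0.0547 and 0.0938.

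Pseudogene regions as a whole were set beside the 2337 regions at protein-coding starts. They had a peak 1.99 points more often, higher in 8 of 10 libraries (exact sign-flip permutation p = 0.0137, adjusted 0.0365). Median fold enrichment was higher by 0.127 on average, in 9 of 10 libraries with 1 tie (exact p = 0.00391, adjusted 0.0273). Among regions with at least 90% of unique windows this was 0.0627 (exact p = 0.0195), where 31.1% of pseudogene and 19.6% of protein-coding start regions fell below that share. Both were smaller and past no threshold within 1 kb of the start, at 1.80 points (exact p = 0.119) and 0.0448 (exact p = 0.188). The first also missed the threshold with at least 3 libraries required (1.44 points, exact p = 0.225) and with distance taken from the region midpoint (1.78 points, exact p = 0.0508). It lost its call too when F0 CD replicate 1, F0 WD replicate 2 or F0 WD replicate 4 was left out, at 1.95, 1.75 and 1.34 points (exact p = 0.0508, 0.0547 and 0.105). A peak in 5 or more libraries was found for 25.9% of pseudogene, 26.3% of all consensus and 22.3% of protein-coding start regions. The median fold enrichment per region was 4.03, 4.03 and 3.91 in that order. By these values pseudogene regions were near the level of all consensus regions, and protein-coding start regions lay below it.

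**Figure D3:**
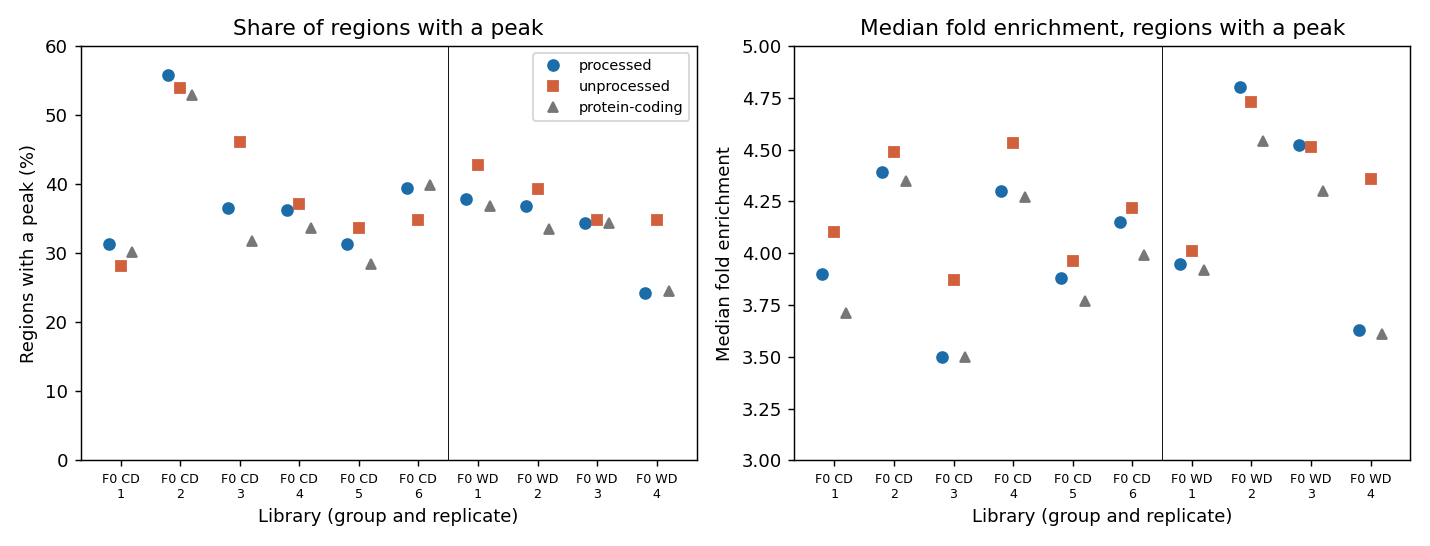
Share of regions with a peak (left, %) and median fold enrichment of the regions with a peak (right, axis from 3 to 5) in each library, for processed and unprocessed pseudogene and protein-coding start regions. The share of processed regions ran from 24.2% to 55.8%, and F0 CD replicate 2 was highest in all 3 classes.

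Detection was next compared between the diets region by region. Both diets had a peak in 420 of the 591 regions (71.1%), F0 CD alone, with 6 libraries to the 4 of F0 WD, in 141 (23.9%) and F0 WD alone in 30 (5.08%). Over all consensus regions these shares were 72.8%, 21.9% and 5.29%, close to those of the pseudogene regions. By two-sided Fisher's exact test on libraries with and without a peak, 4 pseudogene regions (0.677%) had peaks in a larger share of F0 WD libraries at an unadjusted p under 0.05, where the background over all 24550 regions was 0.558%. Toward F0 CD there were 3 (0.508%), with a background of 0.473%. Leaving out 1 library moved these counts between 1 (without F0 WD replicate 1 or 2) and 7 (without F0 CD replicate 2) toward F0 WD, and between 3 and 7 (without F0 CD replicate 3 or 6) toward F0 CD. The F0 CD count was 6 with F0 CD replicate 5 or with F0 WD replicate 2 left out and 5 with F0 WD replicate 1 left out. The background was not computed with a library left out, so only the 0.677% and 0.508% can be set beside one. Both shares were near the background, and 0 of the 24550 regions passed Benjamini-Hochberg adjustment, with a smallest adjusted p of 1. The smallest p that 6 against 4 libraries can give is 0.00476.

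Gm14219, a processed pseudogene on chromosome 2, had a peak in all 6 F0 CD libraries and in 0 of 4 F0 WD libraries (Fisher's exact p = 0.00476, adjusted p = 1). The summit held 29, 20, 20, 21, 17 and 27 read ends in F0 CD replicates 1 to 6. Its region did not overlap the pseudogene but lay downstream, 1451 bp from the start, and 78.5% of its bases were repeat-masked. AC142448.3, a processed pseudogene on chromosome 18 most like Wdr53, had the same split with 14 to 22 read ends. Rps25-ps1, a copy of the ribosomal protein gene Rps25, had a peak in 5 of 6 F0 CD libraries and in 0 of 4 F0 WD libraries (exact p = 0.0476), with 14 to 18 read ends. The regions of AC142448.3 and Rps25-ps1 lay upstream of the pseudogene, 914 and 2864 bp from its start. Their repeat-masked share was 93.2% and 67.9%.

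Toward F0 WD, Gm9765 was the only unprocessed region called. It is most like Itln1, which encodes an intelectin, and the region chr1:171515089-171515610 covered its start. Peaks were present in F0 WD replicates 1, 2 and 4 with 12, 12 and 18 read ends and in 0 of 6 F0 CD libraries (Fisher's exact p = 0.0333). Gm6946 (13 to 19 read ends) and AC132235.3 (11 to 18 read ends), both processed, had peaks in F0 WD replicates 1, 2 and 3 and in 0 of 6 F0 CD libraries. Gm26943 had a peak in all 4 F0 WD libraries and in F0 CD replicate 6 (Fisher's exact p = 0.0476). Its summit held 13 to 21 read ends in F0 WD and 16 in F0 CD replicate 6. The regions of Gm6946, AC132235.3 and Gm26943 lay outside the pseudogene, 1869, 2517 and 1026 bp from its start. The lowest summit among pseudogene regions held 9 to 13 read ends depending on the library. Some of these summits, such as those with 11 read ends at AC132235.3 and 12 at Gm9765, were close to this detection limit. Those of Gm14219, with 17 to 29, lay further above it. A missing peak does not show closed chromatin at any of these regions.

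**Figure D4:**
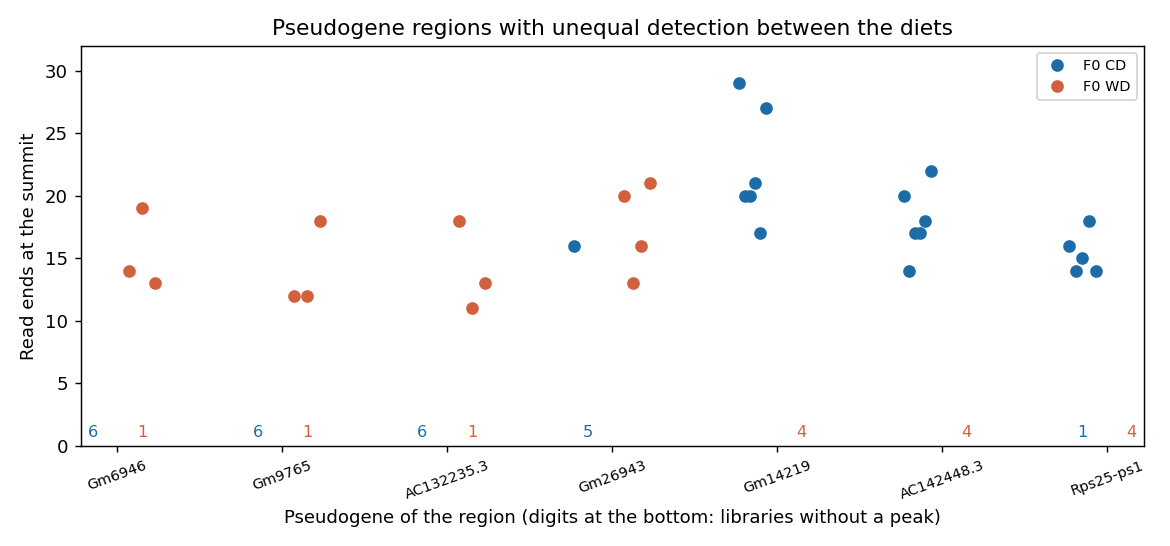
Read ends at the summit of the 7 pseudogene regions with unequal detection, 1 point per library with a peak. Digits at the bottom give the number of libraries of each diet without a peak. Gm14219 held 17 to 29 read ends in the F0 CD libraries.

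For the 21 regions with a peak in every library, the place in the peak lists was compared instead, a comparison added after the data had been seen. Gm7594, most like the glycolytic gene Eno1, lay at a mean of 18.2% of the list in F0 CD and 52.3% in F0 WD (exact permutation p = 0.0333, two-sided), and no other of the 21 was under 0.05. Over all 510 such regions 3.73% were nearer the top in F0 CD and 0.392% in F0 WD at this threshold. By the same exact permutation test, 0 of the 510 passed Benjamini-Hochberg adjustment (adjusted p = 0.992 for Gm7594).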

How the data were processed

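Sperm ATAC-seq peak lists of 6 F0 CD and 4 F0 WD mice were used, 1 list for each animal. As the study's methods state, with tool versions from the submitters' notes, the authors trimmed paired reads (Trim Galore 0.6.10), aligned them to mm10 (Bowtie2 2.4.5, up to 20 alignments per read), removed alignments of quality under 5, duplicates (Picard 2.24.0), mitochondrial and chromosome Y reads, retained 50 to 115 bp fragments and ran peak calling on each library (MACS2 2.2.7.1, q threshold 0.05, no input). Libraries were amplified for 8 to 11 PCR cycles per the labels. The deposited columns used were the fold enrichment (a ratio) at each summit and the p-value and q-value on the −log10 scale. The deposited score column was not used. The methods give a lower bound on reads per sample, and exact library totals were not used.

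Members and gene lists were chosen with earlier results of these data known. Start sites came from GENCODE M21. Distance ran from the nearest region edge. Read ends and background at a summit were solved from fold and p, with an exact solution for all 2164 peak values of these regions (within 0.001 in −log10 p). Place in a list is the rank of the best summit by −log10 p, as a percentage. Unique windows are 50-base windows found once in GRCm38. The most similar transcript was found with blastn 2.17.0 (e-value 1e-20). No minimum share of the pseudogene had to align, and at Gm11591, counted with Rps2, 28.2% did. Detection was tested with Fisher's exact test over all 24550 regions, per-library values with exact permutations (210 splits, or 1024 sign flips whose smallest p is 0.00195), adjusted over 7 tests. The labels do not say that mice shared a cage or day. Scripts were tested on simulated data. Named regions were the 12 best-ranked with peaks in all 10 libraries, the 5 best-ranked processed and unprocessed regions in at least 5, up to 5 called per direction, 3 on each side of the 3 kb limit and the 4 genes with most regions. Some sequences are not reported here. Alternatives changed the q threshold, library minimum, window, overlap, distance, gene types and libraries.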

Additional observations from a re-analysis of the deposited data

Results flagged for a closer look

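Per-library values were examined for a library that stood far from the others of its diet, in 12 groups of values, where chance flags about 1 in 20. F0 CD replicate 2 had a peak in 55.7% of the pseudogene regions, and the other 5 F0 CD libraries had 30.6% to 38.4%. F0 WD replicate 4 had a median fold enrichment of processed regions that differed from the unprocessed by -0.728, and the other 3 F0 WD libraries lay between -0.0598 and 0.0653. In F0 WD replicate 1 the median fold enrichment of pseudogene regions exceeded that of protein-coding start regions by 0.0251, and in the other 3 by 0.212 to 0.231.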

How the results depend on the processing

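Of 182 recomputed values, 143 kept their direction and side of the threshold (counts within 1.5 times). Calls toward F0 WD numbered 2 at a q under 0.01, 1 at a q under 0.001 and 1 within 1 kb. Calls toward F0 CD numbered 5 at a q under 0.001, 1 within 1 kb and 7 by mid-p. The share called over all consensus regions was not computed under these settings, so these counts have no background beside them. For processed minus unprocessed share, the difference turned to 1.64 points with at least 3 libraries, 2.47 with transcribed types left out and 3.27 with at least 90% unique windows, and was -8.50 within 1 kb. Its diet contrast was 1.61 at a q under 0.001, 5.21 within 1 kb and -4.53 with transcribed types left out. The fold difference was 0.0813 with transcribed types left out, 0.122 with at least 90% unique windows, -0.147 by region midpoint (call lost) and -0.00517 with 1 region per gene. Against protein-coding starts, the share difference was 1.44 with at least 3 libraries, 1.80 within 1 kb and 1.78 by midpoint, and the fold difference 0.0448 within 1 kb, each past no threshold. The share of consensus regions, F0 WD minus F0 CD, was 0.0745 with at least 3 libraries. The causes were not tested. The restriction to unique windows was chosen after seeing the data for the diet comparisons.

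Leaving out 1 library at a time gave 1 to 7 calls toward F0 WD (1 when F0 WD replicate 1 or 2 was left out, 7 for F0 CD replicate 2) and 3 to 7 toward F0 CD (7 for F0 CD replicate 3 or 6, 6 for F0 CD replicate 5 and for F0 WD replicate 2, 5 for F0 WD replicate 1). No background over all consensus regions was computed for these counts. The diet difference in peak share ran from -5.96 to -1.13 points, and that in the share of consensus regions from -0.112 to 0.0377, above 0 without F0 CD replicate 3 (0.0377) or 5 (0.0188) and F0 WD replicate 1 (5.76e-04) or 3 (0.0230). Processed minus unprocessed ran from -3.90 to -0.261 points and from -0.269 to -0.162 in fold, and the diet contrast from -7.39 to -1.84. Against protein-coding starts the ranges were 1.34 to 2.46 points and 0.109 to 0.149 in fold.

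Replicate numbers 1 to 4 occur in both diets. Deviations of same-numbered libraries from their group means in detection correlated between -0.0115 and 0.0337. Of the F0 WD libraries, 1 of 4 correlated best with its own number. No pairing by number was thus seen. With a median of only 3 libraries per region, such correlations cannot show that the libraries share nothing but a number. With the replicate block the diet differences were -6.09 points, -0.0724 and -3.30 points, changing no call, and the smallest p this pairing can give is 0.125. The exact read total of each library is unknown here, and summits under 9 to 13 read ends were not called in pseudogene regions.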
